A study of Mus musculus with 6 samples.

Results

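Cyclin-dependent kinase (CDK) inhibitors and the retinoblastoma (Rb) family were followed through the ATAC-seq peaks of their 10 genes, Cdkn1a, Cdkn1b, Cdkn1c, Cdkn2a, Cdkn2b, Cdkn2c, Cdkn2d, Rb1, Rbl1 and Rbl2. A peak belonged to a gene if the deposited annotation gave it that symbol (16 peaks), or if it had no gene and lay between the start and the stop of a member (2 peaks, both in Rb1). This gave 18 of 75412 peaks, and each of the 10 genes had at least 1. ATAC-seq marks open chromatin by the insertion of Tn5 transposase. It was applied to muscle stem cells (MuSCs) freshly isolated from C57BL/6 mice, with 3 control libraries and 3 libraries of Taf4a sKO mice. In Taf4a sKO mice tamoxifen given to adults activates a Pax7-driven Cre recombinase (Pax7CreERT) that removes exons 11 and 12 of both floxed alleles of Taf4a, a subunit of the general transcription factor TFIID. Recombination is thus limited to cells that expressed Pax7. The other group is called WT in the sample titles and control in the genotype label. By the study's animal list its controls were littermates with both floxed alleles, with or without the Pax7 Cre allele. Which of these genotypes the 3 control libraries had is not given in the sources used here. The list names tamoxifen treatment for the Taf4a sKO mice only, and whether the control mice received it is not stated there. Mice of both groups were with or without a Pax7 ZsGreen reporter. The libraries held summed normalised read counts of 37722015, 35226223 and 42803315 in control and of 44311913, 41661725 and 41948821 in Taf4a sKO MuSCs.

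Progression from G1 to S phase depends on cyclin-dependent kinases that phosphorylate the Rb family proteins and thereby release E2F transcription factors. The Cip/Kip inhibitors p21 (Cdkn1a), p27 (Cdkn1b) and p57 (Cdkn1c) bind cyclin-CDK complexes, whereas the INK4 inhibitors p16 (Cdkn2a), p15 (Cdkn2b), p18 (Cdkn2c) and p19 (Cdkn2d) bind CDK4 and CDK6. Several of these proteins are known for holding MuSCs in quiescence or for withdrawing myoblasts from the cell cycle.

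In Taf4a itself the peak over an exon of the deleted part was lower, and so were peaks outside it. The peak over exon 12, at chr2:179922849-179923263, had values of 65, 78 and 137 in control and 44, 22 and 25 in Taf4a sKO MuSCs (log2 fold change -1.58 ± 0.30 SE, limma adjusted p = 3.4e-04), and all Taf4a sKO values lay below all control values. The peak over exon 7, which is not deleted, was also lower (-0.83 ± 0.15 SE, limma adjusted p = 1.4e-04), as was a peak over no exon at chr2:179916955-179917641 (-0.49 ± 0.18 SE, limma adjusted p = 0.027), while a peak near the promoter was higher (0.55 ± 0.14 SE, limma adjusted p = 0.0030). The Taf4a promoter peak at chr2:179975752-179977530 did not pass the test (-0.07 ± 0.10, limma adjusted p = 0.59), but was called lower under TMM factors, which rescale each library by a trimmed mean of its log ratios (-0.19, limma adjusted p = 0.0099). Of the 8 MuSC marker genes (Pax7, Myf5, Calcr, Itga7, Vcam1, Sdc4, Cdh15 and Fgfr4), all 8 had a peak.

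Throughout, a peak is called higher or lower in Taf4a sKO MuSCs where the Benjamini-Hochberg adjusted p from limma, fitted on log2(value + 1) of all 75384 peaks with a mean above 10, was under 0.05. Fold changes are on that scale. Of the 18 peaks, 4 were called higher and 1 lower, and 13 were not called. Over all peaks 28.0% were called higher and 13.9% lower. The median log2 change of the 18 peaks was 0.10 and that of all peaks 0.11. With TMM factors the median of all peaks moved to -0.01, and the split of the 18 peaks became 4 higher and 3 lower. Among the 10 peaks nearest a transcription start site (TSS), 2 were higher and 0 lower, compared with 11.5% higher and 7.21% lower among the TSS-nearest peaks of all protein-coding genes. Under TMM factors these shares were 11.2% and 23.3%, those of all peaks 25.4% and 22.3%, and the 10 member TSS peaks had 2 higher and 1 lower. The counts rested on single libraries. Without control replicate 3, 7 of the 18 peaks and 5 of the TSS peaks were higher, without control replicate 1 they were 2 and 1, and without Taf4a sKO replicate 1 they were 3 and 1. Over all peaks the count called higher moved in the same directions, from 21102 to 28502, 18058 and 17369 in turn. By family, 3 of 7 Cip/Kip peaks were higher and none lower, 0 of 6 INK4 peaks were called, and of 5 Rb family peaks 1 was higher and 1 lower. All Taf4a sKO values were above all control values at 5 of the 18 peaks and below them at 1, patterns found at 32.3% and 18.0% of all peaks. A change in the number of cells with an open site and a change in how open it was per cell cannot be told apart in these bulk libraries.

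**Figure D1:**
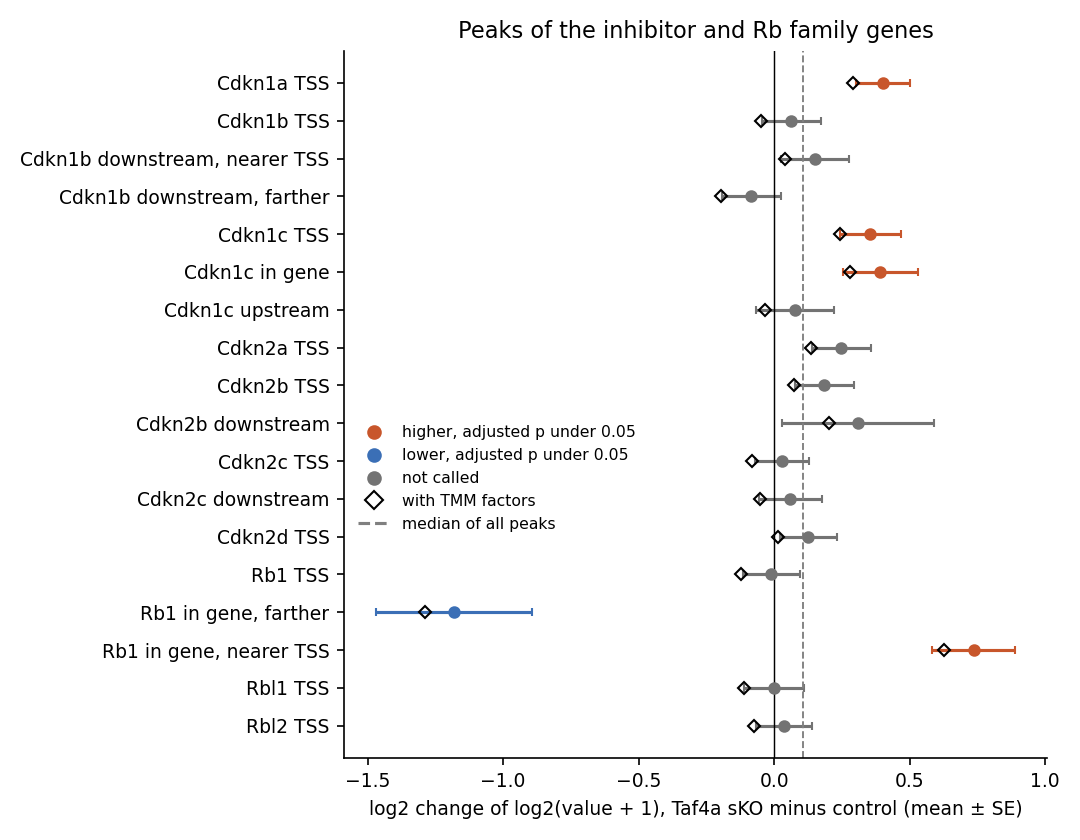
Log2 change of the 18 peaks (x axis, Taf4a sKO minus control, filled circles with SE), in the order of the gene list, with the value under TMM factors as open diamonds and the median of all peaks (0.11) as a dashed line. The 4 higher peaks belong to Cdkn1a, Cdkn1c and Rb1, and the 1 lower peak to Rb1.

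In control MuSCs the TSS peaks differed in strength. Per kb of peak the mean normalised read count was 4301 ± 523 (SD, n = 3) at Cdkn2d, the highest, and 639 ± 24.2 (SD, n = 3) at Rbl1, the lowest, with 954 as the median of protein-coding TSS peaks. In descending order the 10 genes were Cdkn2d, Cdkn1b, Cdkn2c, Rb1, Cdkn2b, Cdkn1a, Rbl2, Cdkn1c, Cdkn2a and Rbl1. Between neighbours in this order the control libraries did not overlap at 3 steps, which were Cdkn2d to Cdkn1b, Cdkn1a to Rbl2 and Cdkn1c to Cdkn2a. The other neighbours overlapped. Among the 6 libraries Cdkn1a ranked between 3 and 6, the widest range of the 10 genes.

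**Figure D2:**
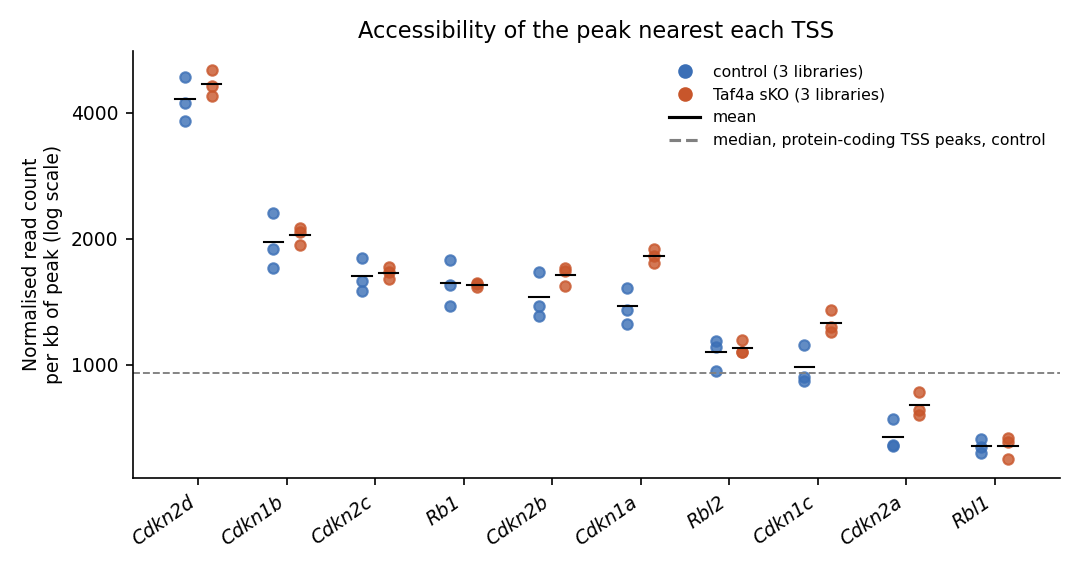
Normalised read count per kb of the peak nearest each TSS (log axis), 1 point per library, with the mean of each genotype as a line and the control median of protein-coding TSS peaks (954) dashed. Cdkn2d stands above the other genes, and at Cdkn1a, Cdkn1c and Cdkn2a all Taf4a sKO libraries lie above all control libraries.

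Cdkn1a encodes p21, an inhibitor of CDK2 complexes and a well-known target of p53. Its only peak, at chr17:29093512-29095894, covered the start of the transcripts Cdkn1a-201 and Cdkn1a-205 and of AC167363.2-201, a transcript of another gene, and reached into the first intron. The values were 3226, 2988 and 3636 in control and 4491, 4329 and 4164 in Taf4a sKO MuSCs. The lowest Taf4a sKO library was above the highest control library. The means were 3283 ± 328 and 4328 ± 164 (SD, n = 3), and the log2 fold change was 0.40 ± 0.10 (SE, limma adjusted p = 0.0024). The call was kept under every alternative tried, with a fold change of 0.29 under TMM factors.

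RefSeq (GRCm38) places starts of Cdkn1a at 2 positions. The window before the downstream start lies under this peak, and the window before the upstream start lies under no peak of the table. The 250 bases before each start are shown, in the direction of transcription, because they differ in sequence features as well as in accessibility. In the downstream window, at chr17:29093519-29093768, the capitals mark 2 matches to GGGCGG, the GC box, and 1 to CANCTG, the E-box. In the upstream window, at chr17:29090729-29090978, they mark a match to the p53 site, a pair of decamers with no spacer, exact core letters and at most 2 mismatches elsewhere, from 29090928 to 29090947, which ends 31 bases before the start.
Cdkn1a downstream start: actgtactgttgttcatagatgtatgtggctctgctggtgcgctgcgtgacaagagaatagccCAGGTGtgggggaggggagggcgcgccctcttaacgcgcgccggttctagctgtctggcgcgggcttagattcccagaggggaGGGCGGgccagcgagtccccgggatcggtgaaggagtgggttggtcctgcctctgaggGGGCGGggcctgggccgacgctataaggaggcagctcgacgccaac
Cdkn1a upstream start: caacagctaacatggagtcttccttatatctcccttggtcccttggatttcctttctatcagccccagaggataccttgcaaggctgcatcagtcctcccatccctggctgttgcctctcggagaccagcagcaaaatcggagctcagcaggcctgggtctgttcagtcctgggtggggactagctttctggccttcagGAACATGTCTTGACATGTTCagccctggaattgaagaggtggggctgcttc

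Both strands were searched. A p53 site was found in 1 of the 11 RefSeq promoter windows of 300 bases that matched 8 of the 10 genes, and in 0.158% of all 32851 windows. No p53 site lay within any of the 18 peaks, and 0.442% of all peaks held one. GGGCGG was present in 9 of the 11 windows (35.7% of all windows), CCAAT in 4 (37.4%) and TTTNNCGC, an E2F-type sequence, in 3 (5.17%). In the central 300 bases of the 10 TSS peaks, GGGCGG was present in 8 (58.5% of protein-coding TSS peaks), CCAAT in 4 (28.0%), TTTNNCGC in 2 (7.17%), CANCTG in 2 (47.3%), TTTGAA in 1 (8.01%) and TGANTCA, the AP-1 site, in 0 (6.43%). The TTTNNCGC matches of the central windows were in Rbl1 and Rb1. These matches describe the letters and are not evidence of binding.

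Cdkn1a lies between 2 peaks outside the rule that were also higher. They were named after their values were seen and are the only other peaks within 15000 bp of the gene. The peak at chr17:29078228-29079374 covered the start of Trp53cor1, which encodes the p53-induced long noncoding RNA lincRNA-p21. Its values were 882, 961 and 1200 in control and 1629, 1446 and 1507 in Taf4a sKO MuSCs (log2 fold change 0.60 ± 0.12 SE, limma adjusted p = 2.3e-04). The peak held a match to the p53 site, from 29079039 to 29079058, and 0.778% of central windows of the same width over all peaks held one.
p53 site in the Trp53cor1 peak: aggcaagcccgggcaaggcc

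On the other side, a peak in an intron of Rab44, at chr17:29115546-29116404, had values of 199, 225 and 179 in control and 362, 308 and 346 in Taf4a sKO MuSCs (log2 fold change 0.75 ± 0.15 SE, limma adjusted p = 2.3e-04). In both neighbours, as in Cdkn1a, all Taf4a sKO values were above all control values.

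Cdkn1b encodes p27, which accumulates in quiescent cells. None of its 3 peaks was called. The TSS peak at chr6:134919720-134921259 had values of 2902, 2627 and 3540 in control and 3258, 3187 and 2966 in Taf4a sKO MuSCs (0.06 ± 0.11, limma adjusted p = 0.68), and the Taf4a sKO values lay within the control range. Its peak with the smallest p lay downstream of the gene, at chr6:134926956-134927710. The values there were 443, 437 and 496 in control and 480, 522 and 526 in Taf4a sKO MuSCs (0.15 ± 0.12, limma adjusted p = 0.35). The peak at chr6:134928048-134929213, which covered the start of the noncoding RNA gene Lockd downstream of Cdkn1b, had a log2 change of -0.08 ± 0.11 (limma adjusted p = 0.58). Under TMM factors this peak was called lower (-0.20, limma adjusted p = 0.0090).

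Cdkn1c encodes p57, an imprinted inhibitor expressed from the maternal allele. Of its 3 peaks, 2 were higher. The TSS peak at chr7:143460589-143461541 had values of 871, 890 and 1063 in control and 1289, 1172 and 1142 in Taf4a sKO MuSCs. The groups did not overlap, and the highest control library came close to the lowest Taf4a sKO library. The log2 fold change was 0.36 ± 0.11 (SE, limma adjusted p = 0.013). The peak inside the gene, at chr7:143459248-143459977, was weaker, with 292, 280 and 361 in control and 390, 395 and 434 in Taf4a sKO MuSCs, again without overlap (0.39 ± 0.14 SE, limma adjusted p = 0.026). Both Cdkn1c calls depended on single libraries, whereas the other 3 of the 5 calls were kept whichever library was left out. Without control replicate 1 the adjusted p from limma was 0.081 at the TSS and 0.086 inside the gene, without Taf4a sKO replicate 1 it was 0.078 at the TSS, and inside the gene it was 0.12 without control replicate 2, 0.051 without Taf4a sKO replicate 2 and 0.13 without Taf4a sKO replicate 3.

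The central 300 bases of the peak inside the gene, at chr7:143459463-143459762 on the plus strand of GRCm38, lie in an intron and are shown because the peak is one of the 3 called besides the TSS-nearest peaks. The whole peak covers the annotated starts of Cdkn1c-204, another transcript of the gene, and of Gm44732-201. Their GC content was 74.3%, compared with a median of 50.7% over all peaks, and the capitals mark the only motif match, a GGGCGG.
Cdkn1c intron peak: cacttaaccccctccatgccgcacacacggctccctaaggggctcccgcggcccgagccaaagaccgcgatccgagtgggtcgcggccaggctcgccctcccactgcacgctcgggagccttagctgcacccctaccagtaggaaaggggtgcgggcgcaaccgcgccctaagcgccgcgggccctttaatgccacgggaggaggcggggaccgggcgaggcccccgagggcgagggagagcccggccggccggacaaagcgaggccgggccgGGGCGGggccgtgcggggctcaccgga

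The upstream Cdkn1c peak, at chr7:143466252-143466795, had values between 215 and 257 in control and between 239 and 258 in Taf4a sKO MuSCs and was not called (0.08 ± 0.14, limma adjusted p = 0.70). Relative to the TSS peak of the same library, its log2 value moved by -0.28 in Taf4a sKO MuSCs, with every Taf4a sKO library below every control library (two-sided exact permutation test, p = 0.1, the limit for 3 against 3, adjusted p = 0.27 over 8 such pairs). On the other side of the gene, a peak outside the rule at chr7:143445756-143446061 was lower, with 69, 61 and 51 in control and 35, 19 and 31 in Taf4a sKO MuSCs (-1.10 ± 0.27 SE, limma adjusted p = 0.0025). It was named after its value was seen, as the only neighbour of Cdkn1c that was called.

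The INK4 genes Cdkn2a and Cdkn2b share 1 locus on chromosome 4. The Cdkn2a peak of the rule, at chr4:89294320-89295774, covered the start of Cdkn2a-202, the transcript of the alternative product p19Arf, which stabilises p53. Its values were 928, 934 and 1079 in control and 1102, 1136 and 1250 in Taf4a sKO MuSCs. All Taf4a sKO values were above all control values, but the difference did not pass the test (0.25 ± 0.11 SE, limma adjusted p = 0.073). The start of the p16 transcript, Cdkn2a-201, lay under another peak, at chr4:89281688-89282602, which the deposited annotation gave to a long noncoding RNA gene and which therefore stands outside the rule. This peak had values of 147, 195 and 216 in control and 237, 240 and 212 in Taf4a sKO MuSCs, which overlap (0.32 ± 0.16 SE, limma adjusted p = 0.12). Per kb the p16 start was at 203 ± 38.7 (SD, n = 3) in control and the p19Arf start at 674 ± 58.8 (SD, n = 3).

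The TSS peak of Cdkn2b, at chr4:89310417-89311414, had values of 1377, 1306 and 1658 in control and 1700, 1542 and 1670 in Taf4a sKO MuSCs (0.18 ± 0.11, limma adjusted p = 0.19). A weak peak downstream of Cdkn2b, with values from 26 to 42, was not called either. Cdkn2c had 2 peaks with changes of 0.03 and 0.06, and the weaker one covered the start of 9630013D21Rik. Cdkn2d, the gene with the strongest TSS peak, had 3925, 3549 and 4513 in control and 4690, 4061 and 4293 in Taf4a sKO MuSCs (0.13 ± 0.10, limma adjusted p = 0.36). No INK4 peak was called, and in 5 of the 6 the 2 genotypes overlapped. Without control replicate 3 the TSS peaks of Cdkn2a, Cdkn2b and Cdkn2d were called higher, which raised the count over the 18 peaks to 7. Leaving out this library also raised the count of higher peaks over the whole table, from 21102 to 28502.

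**Figure D3:**
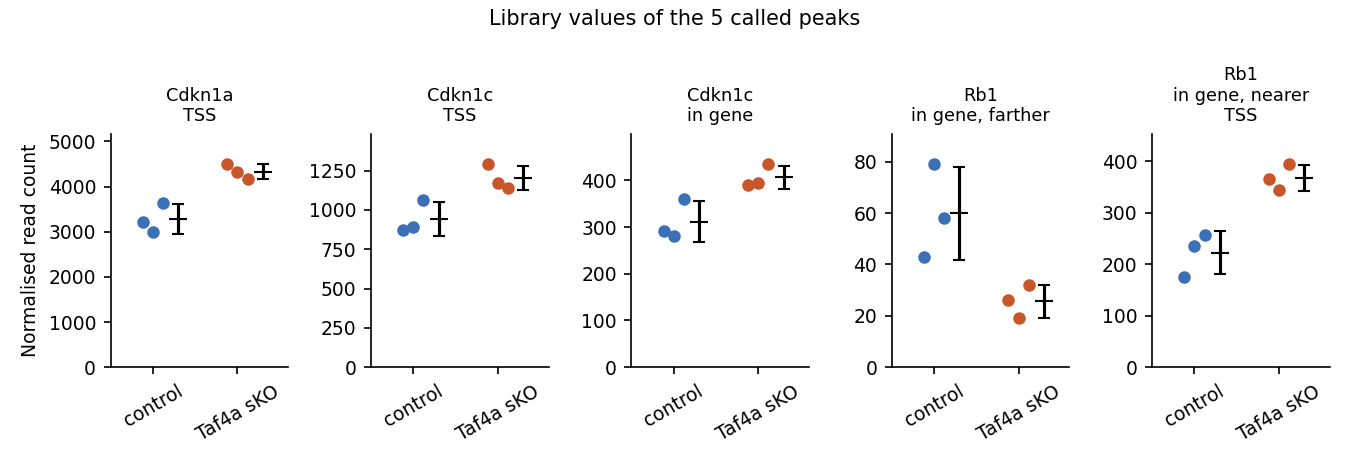
Normalised read counts (y axis from 0) of the 5 called peaks, 1 point per library, with the mean and SD of each genotype as a bar at the side. Taf4a sKO libraries are above control libraries in the first 3 panels and the last, and below them in the Rb1 peak farther from the TSS.

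In the Rb family, the TSS peaks differed between the genotypes by less than the replicate error, and 2 peaks inside Rb1 were called in opposite directions. Rb1 encodes the retinoblastoma protein, while Rbl1 (p107) and Rbl2 (p130) encode its relatives, of which p130 is the main E2F partner in quiescent cells. The Rb1 TSS peak at chr14:73324846-73326582 had values of 2699, 2393 and 3088 in control and 2717, 2658 and 2702 in Taf4a sKO MuSCs (-0.01 ± 0.10, limma adjusted p = 0.95). Under TMM factors it was called lower (-0.12, limma adjusted p = 0.040). The log2 change was 0.00 ± 0.11 at the TSS of Rbl1, with values from 765 to 825 in control and from 741 to 831 in Taf4a sKO MuSCs. Under quantile normalization, another scaling, the Rbl1 peak was called lower (-0.21, limma adjusted p = 0.046). At the TSS of Rbl2 the log2 change was 0.04 ± 0.10, with values from 1430 to 1688 and from 1583 to 1692.

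Both called Rb1 peaks lay in intron 2 of Rb1-201, a transcript of 27 exons, and 4018 bp apart. The peak at chr14:73313308-73314084, 12.1 kb from the TSS, had values of 176, 236 and 256 in control and 365, 344 and 394 in Taf4a sKO MuSCs. It was higher in Taf4a sKO MuSCs without overlap, with means of 223 ± 41.6 and 368 ± 25.1 (SD, n = 3) and a log2 fold change of 0.74 ± 0.15 (SE, limma adjusted p = 4.6e-04). The peak at chr14:73309069-73309289, 16.6 kb from the TSS, had values of 43, 79 and 58 in control and 26, 19 and 32 in Taf4a sKO MuSCs.

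This second peak was lower, also without overlap, with means of 60.0 ± 18.1 and 25.7 ± 6.5 (SD, n = 3) and a log2 fold change of -1.18 ± 0.29 (SE, limma adjusted p = 0.0020). It rested on between 14 and 79 reads per library. By a ratio of the group means beyond a log2 value of 1, with a pseudocount of 1, it was the 1 peak of the 18 that was lost, and 0 were gained, compared with 5.36% lost and 7.03% gained over all peaks. At a pseudocount of 10, or without control replicate 2, it no longer reached this ratio. The 2 intron peaks were set against each other after their calls were known, and no test is given. Within each library, the log2 value of the nearer peak exceeded that of the farther one by 1.90 ± 0.29 (SD, n = 3) in control and by 3.82 ± 0.27 (SD, n = 3) in Taf4a sKO MuSCs. In this measure a scaling factor of a library cancels, apart from the pseudocount.

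The sequences of these intron peaks are shown for comparison, on the plus strand of GRCm38, opposite to the direction of transcription of Rb1. The first is the central 300 bases of the higher peak, at chr14:73313547-73313846, in which the capitals mark an E-box, then a match to CCAAT on the minus strand, then an AP-1 site. The second is the whole lower peak of 221 bases, in which they mark 1 CCAAT. Their GC contents were 40.0% and 40.7%. TGANTCA was found in the central window of 1 of the 18 peaks, this Rb1 peak, and in 22.0% of all peaks.
Rb1 intron 2, higher: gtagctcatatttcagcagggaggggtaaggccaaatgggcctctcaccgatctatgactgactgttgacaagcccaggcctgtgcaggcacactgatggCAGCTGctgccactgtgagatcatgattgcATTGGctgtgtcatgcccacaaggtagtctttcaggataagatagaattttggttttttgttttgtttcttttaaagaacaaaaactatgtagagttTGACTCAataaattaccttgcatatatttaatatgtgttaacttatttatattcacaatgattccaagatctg
Rb1 intron 2, lower: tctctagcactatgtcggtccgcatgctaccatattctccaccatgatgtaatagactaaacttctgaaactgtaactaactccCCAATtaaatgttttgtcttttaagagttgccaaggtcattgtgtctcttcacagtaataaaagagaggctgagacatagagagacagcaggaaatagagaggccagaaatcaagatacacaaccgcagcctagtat

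**Figure D4:**
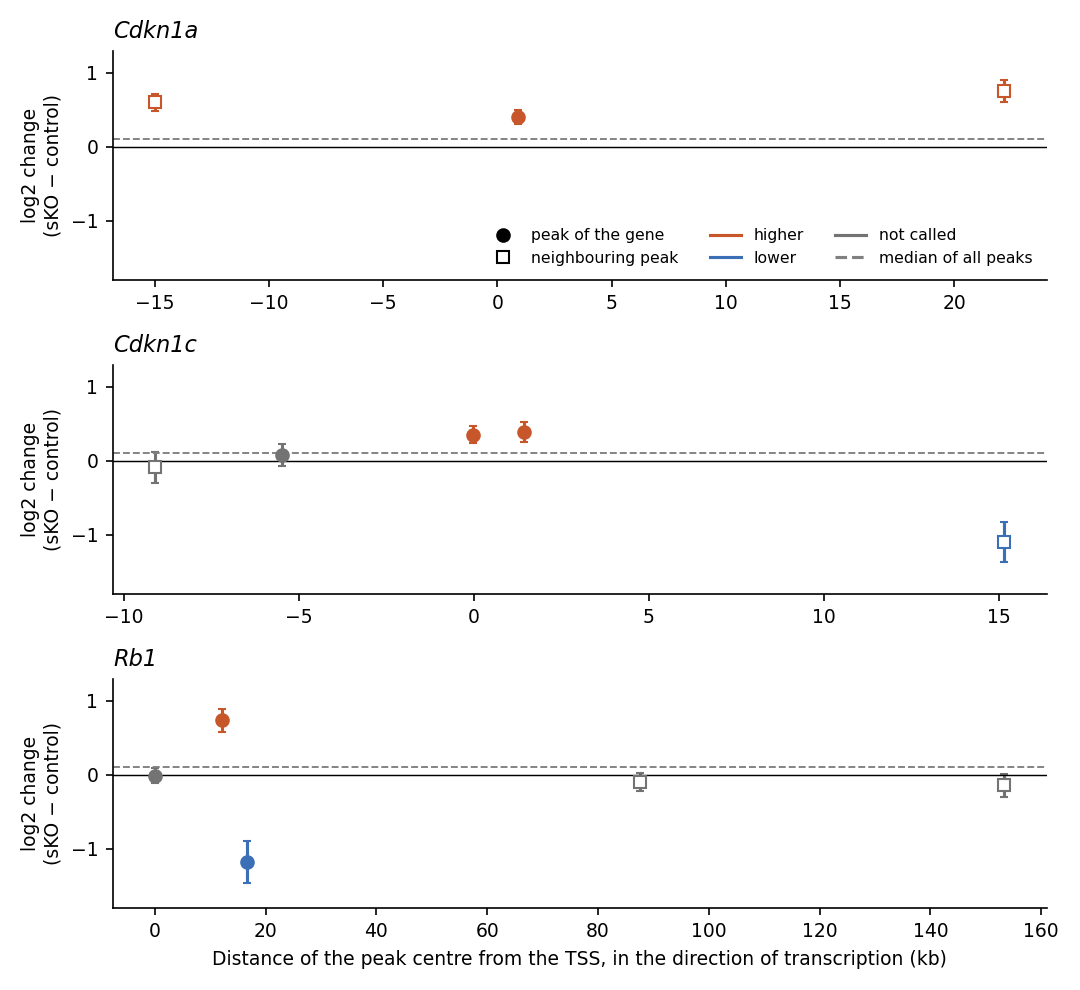
Log2 change with SE (y axis) of the peaks of Cdkn1a, Cdkn1c and Rb1 (circles) and of neighbouring peaks outside the rule (squares), by distance of the peak centre from the TSS in kb (x axis, a different range in each panel). All 3 peaks around Cdkn1a were higher, while the called peaks around Cdkn1c and Rb1 included both directions.

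Summed over its peaks, the signal was higher in all Taf4a sKO libraries than in all control libraries for 3 of the 10 genes, compared with 21.0% of the 14083 genes that the deposited annotation names. The difference was 31.8% for Cdkn1a, 24.7% for Cdkn1c and 18.6% for Cdkn2a (two-sided exact permutation test, p = 0.1 each, adjusted p = 0.33 over the 10 genes). For Rb1 the sum differed by 2.54% (exact permutation p = 0.70), and its TSS peak held most of the signal. For Cdkn1b it differed by 0.117% (exact permutation p = 1). Under TMM factors the log2 difference of the sum fell from 0.40 to 0.29 for Cdkn1a and from 0.32 to 0.21 for Cdkn1c. For Cdkn2a it fell from 0.25 to 0.14, and it turned from 0.043 to -0.069 for Rb1 and from 0.012 to -0.10 for Cdkn1b.

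The genes on which the inhibitors act, and those that act on them, were described by 5 lists with 47 genes, of which 43 had 79 peaks. Foxm1, Trp53, Skp2 and Cks1b had none in the annotation. Over these peaks 10 (12.7%) were higher and 3 lower, both below the shares of 28.0% and 13.9% over all peaks. Many are TSS peaks, and among protein-coding TSS peaks these shares were 11.5% and 7.21%. Under TMM factors 8 were higher and 16 lower, compared with 25.4% and 22.3% over all peaks. The count of 10 became 19 without control replicate 3 and 6 without control replicate 2, Taf4a sKO replicate 1 or Taf4a sKO replicate 3. Over all peaks the count of 21102 higher became 28502 without control replicate 3 and 16024 without control replicate 2. Of the 23 peaks of the regulators of the inhibitors 8 (34.8%) were higher, a share near that of all peaks, and none was lower. Among them a peak annotated to Cbx7, a Polycomb protein that represses Cdkn2a, had values of 329, 358 and 267 in control and 1059, 684 and 969 in Taf4a sKO MuSCs (1.49 ± 0.16 SE, limma adjusted p = 6.8e-07). A peak 7311 bp from the TSS of Mdm2, the ubiquitin ligase of p53, had 436, 433 and 491 in control and 874, 815 and 875 in Taf4a sKO MuSCs (0.91 ± 0.12 SE, limma adjusted p = 1.9e-06). Neither pair of groups overlapped. The stronger peak at the Mdm2 TSS had values from 2024 to 2312 in control and from 2151 to 2173 in Taf4a sKO MuSCs and was not called (-0.0050 ± 0.10, limma adjusted p = 0.97). The other 6 higher peaks belonged to Smad3, Foxo1, Foxo3 and Myc, with changes from 0.33 to 0.90. Under TMM factors 6 of the 8 were called. The exceptions were the Foxo3 peak (limma adjusted p = 0.053) and the Smad3 peak with a change of 0.34 (0.074).

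Among G1 cyclins and kinases 1 of 20 peaks was higher and 1 lower. The higher one lay near Ccnd1, which encodes cyclin D1, at chr7:144933766-144934141, and had values of 114, 147 and 145 in control and 355, 267 and 316 in Taf4a sKO MuSCs (1.20 ± 0.16 SE, limma adjusted p = 3.0e-06). The lower one was the TSS peak of Ccne2, which encodes cyclin E2, with 2431, 2401 and 2730 in control and 2023, 2010 and 2014 in Taf4a sKO MuSCs (-0.32 ± 0.10 SE, limma adjusted p = 0.012). The Ccnd1 TSS peak had 618, 637 and 701 in control and 611, 497 and 561 in Taf4a sKO MuSCs. It was not called (-0.23 ± 0.12 SE, limma adjusted p = 0.14), but was called lower under TMM factors (-0.34, limma adjusted p = 0.0060). Of 19 peaks of E2F and DP factors, 2 of E2f2, an activating E2F, were lower (-0.62 and -0.43), and the TSS peak of E2f7, a repressing E2F, was higher (0.29). No peak was called among the 9 of the S, G2 and M cyclins, their kinase and phosphatases or among the 8 of the MuvB list, which holds partners of p107 and p130. Under TMM factors 4 and 3 peaks of these 2 lists were called lower, as were 3 of the G1 list and 6 of the E2F and DP list. The shares called lower under these factors were 22.3% over all peaks and 23.3% over protein-coding TSS peaks.

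**Figure D5:**
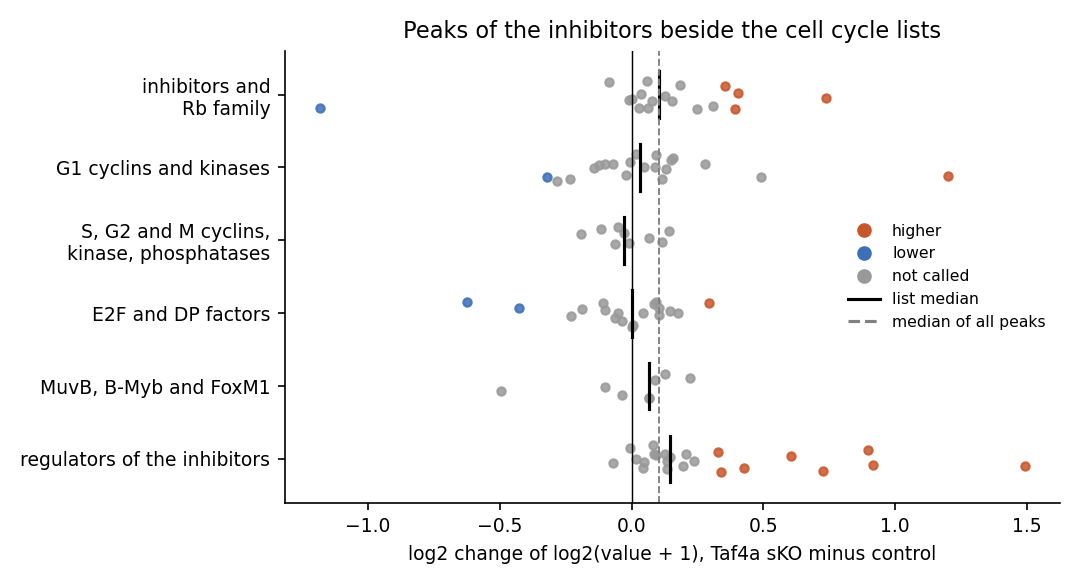
Log2 change (x axis, Taf4a sKO minus control) of each peak of the 10 genes (top) and of the 5 cell cycle lists, with list medians as vertical bars and the median of all peaks (0.11) dashed. The 8 higher peaks of the regulators reach 1.49, and the called peaks of the S, G2 and M and MuvB lists number 0.

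Peaks of genes that mark other cell types are given beside the shares of 28.0% higher and 13.9% lower over all peaks, to which several of the counts are near. Before the sort for integrin alpha7 or a Pax7 reporter, cells with CD45 (Ptprc), CD31 (Pecam1) or SCA1 (Ly6a) on their surface were depleted. The study analysed its sorted cells again and reports an incomplete purity, so the libraries called MuSCs here can hold other cells. The purity for each library is not given in the sources used here. Of 7 haematopoietic genes, 2 had a peak in the annotation (Spi1 and Csf1r), while Ptprc, Cd3e, Itgam, Laptm5 and Cd79b had none there. Their summed signal was 842, 941 and 942 in control and 1252, 1103 and 1385 in Taf4a sKO MuSCs, with 1 of 3 peaks higher, the one of Csf1r. Of 15 peaks of 5 fibro-adipogenic genes, 6 were higher and 3 lower, with sums of 7086, 6658 and 7917 in control and 8757, 8206 and 8159 in Taf4a sKO MuSCs and the strongest peak at Dpt. By the ratio of group means used above, 2 of the 15 were gained, at Lum and Dcn, and 0 lost. Over all peaks 7.03% were gained and 5.36% lost. Ly6a had no peak in the annotation.

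The 4 endothelial genes with a peak summed to 1895, 1668 and 2191 in control and 2465, 2474 and 2329 in Taf4a sKO MuSCs (2 of 6 peaks higher, 1 lower, the strongest peak at Tek), and Tie1 and Emcn had none in the annotation. The 6 myofibre genes had sums from 7188 to 9076 in control and from 7733 to 8940 in Taf4a sKO MuSCs, with 0 of 11 peaks higher and 2 lower and the strongest peak at Mylpf. The MuSC list had 13 of 31 peaks higher and 3 lower, with sums from 22575 to 27667 in control and from 27383 to 29915 in Taf4a sKO MuSCs, and its strongest peak, at Pax7, was among the lower ones (-0.32, limma adjusted p = 0.030). Under TMM factors the MuSC list had 11 higher and 7 lower peaks and the fibro-adipogenic list 5 and 3, and the counts of the other 3 lists were the same. The part of these cell types in the changes at Cdkn1a, Cdkn1c and Rb1 was not tested.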

How the data were processed

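Members and lists were chosen with earlier results of these data known. The authors trimmed reads (Trimmomatic 0.39), aligned them with STAR 2.7.11b to mm10, removed duplicates (Picard 3.1.1), called MACS peaks, counted reads in the joint peak set and scaled them by depth. The deposited values are such a score, scaled counts rounded to whole numbers. A shift for Tn5 insertion is not given in the sources used here. Recovered factors were 1.389, 1.000 and 1.232 in control and 1.388, 1.370 and 1.290 in Taf4a sKO libraries (2 mismatches, in control replicate 3, among values up to 300). The study calls its ATAC-seq libraries biological replicates, but whether each came from a separate animal is not given in the sources used here, so p-values measure the spread between libraries.

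Here limma 3.58.1 (R 4.3.3, trend and robust moderation, Benjamini-Hochberg over 75384 peaks) was run without further scaling, as in the authors' contrasts. The exact permutation tests went through every regrouping of the libraries in Python 3.11.15. The limma step was tested on simulated data. Named were the TSS-nearest and smallest-p peak of each member, and some further member peaks. For each pathway list the 2 higher and 2 lower called peaks with the smallest p were named. Other scalings, filters, pseudocounts, moderation and left-out libraries were tried. Annotation came from the table, GENCODE vM21 (coordinates of all 10 genes match) and RefSeq on GRCm38, in whose promoter table Cdkn1c and Rb1 are missing. The haematopoietic marker list was used without 1 of its genes, which is not reported here.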

Additional observations from a re-analysis of the deposited data

How the results depend on the processing

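The 5 called peaks kept their direction under every scaling, filter, pseudocount and left-out library in which they were tested. The Cdkn1c peak inside the gene was not called under quantile normalization (limma adjusted p = 0.16), and neither called Cdkn1c peak was without trend and robust moderation (0.064 at the TSS, 0.055 inside the gene). With a minimum mean of 50 the lower Rb1 peak was not tested, which left 0 lower and 0 lost peaks. Of the 13 uncalled peaks, 6 changed sign under TMM and median-of-ratios factors and 7 under quantile normalization, and the others kept their direction. With TMM, median-of-ratios and quantile normalization in turn, the log2 change became -0.11, -0.11 and -0.21 at Rbl1, -0.083, -0.084 and -0.079 at the Cdkn2c TSS, -0.052, -0.053 and -0.14 at the distal Cdkn2c peak, -0.048, -0.049 and -0.049 at the Cdkn1b TSS, -0.033, -0.034 and -0.097 upstream of Cdkn1c, and -0.075, -0.076 and -0.11 at Rbl2. Quantile normalization also gave -0.076 at the nearer Cdkn1b downstream peak. In the same order the 3 scalings gave 3, 3 and 4 lower member peaks, 1, 1 and 2 lower TSS peaks, 16, 18 and 22 lower pathway peaks, and 16809, 16943 and 18897 lower peaks over the whole table (10476 without). Quantile normalization moved the median of the 18 peaks to -0.062. Without trend and robust moderation 2 member peaks, 1 TSS peak and 6 pathway peaks were higher. Peaks with the symbol alone left 0 lower and 0 lost, a ratio of 1.5-fold gave 1 gained peak, and a pseudocount of 10 gave 0 lost.

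With 1 library left out at a time, the counts ranged from 2 (without control replicate 1) to 7 (without control replicate 3) higher member peaks, 1 to 5 higher TSS peaks, 6 to 19 higher and 2 to 3 lower pathway peaks, 16024 to 28502 higher and 8565 to 10038 lower peaks over the whole table, and 0 to 1 lost member peaks, with medians of the 18 peaks from 0.029 to 0.20. The count of 19 was without control replicate 3, and that of 6 was without control replicate 2, Taf4a sKO replicate 1 or Taf4a sKO replicate 3. The sign changed within -0.032 to 0.051 at Rbl1, -0.027 to 0.10 at the Cdkn2c TSS, -0.032 to 0.18 at the Cdkn1b TSS, -0.17 to 0.038 at the Lockd peak, -0.035 to 0.084 at Rbl2 and -0.10 to 0.083 at the Rb1 TSS. The cause was not tested.

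Deviations of same-numbered libraries correlated at 0.11, -0.12 and -0.03 (across peaks, which are not independent), so the numbers were not taken as pairs. A fit with the replicate block kept the 5 member calls, with 4 higher and 1 lower, and gave 21944 higher and 11004 lower peaks over the whole table. Depth limits the weak peaks, and the lower Rb1 peak rested on as few as 14 reads in a library.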

Other observations

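Within 15000 bp of the 10 genes lay 15 further peaks outside the rule, of which 3 were higher and 1 lower by limma, shares below the 28.0% and 13.9% over all peaks. Besides the peaks at Trp53cor1 and Rab44, the promoter peak of Kri1, which adjoins the 3' end of Cdkn2d at chr9:21287597-21288721, was higher, with 2838, 2528 and 3073 in control and 3675, 3269 and 3231 in Taf4a sKO MuSCs (log2 fold change 0.27 ± 0.10 SE, limma adjusted p = 0.037). All Taf4a sKO values were above all control values there, whereas at the Cdkn2d TSS the genotypes overlapped. The promoter peaks of Samhd1, Faf1 and Aktip, beyond Rbl1, Cdkn2c and Rbl2, changed by 0.09, -0.03 and 0.10 and were not called. A peak at the start of Lpar6, a receptor gene that lies inside Rb1, had a log2 change of -0.10 ± 0.13 (limma adjusted p = 0.56) and held a match to the p53 site, from chr14:73238053 to 73238072. Cdkn1a had the widest of the 18 peaks, with 2383 bp, compared with a median of 590 bp over all peaks.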
